A study of Mus musculus with 2 samples.

Results

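The nuclear genes for the subunits of oxidative phosphorylation were followed in single islet cells of mice with and without a conditional deletion of Isl1. Members were taken by symbol: all rows whose names start with Ndufa, Ndufb, Ndufs, Ndufv, Sdha to Sdhd, Uqcr, Cox4 to Cox8 (except Cox6a2) or Atp5, with at least 50 unique molecular identifiers (UMIs, counted RNA molecules) over the called cells of both libraries. The names matched 97 of 46983 rows, and 93 rows passed the minimum. The 4 that did not were Cox8b, Cox8c and the pseudogenes Atp5k-ps2 and Atp5l-ps1. The 93 members comprised 78 subunit genes, 34 for complex I, 4 for complex II, 8 for complex III, 17 for complex IV (with Ndufa4 and its paralog Ndufa4l2) and 15 for ATP synthase (complex V). The same names also took in 11 assembly factors (Ndufaf and Sdhaf genes), Atp5s and Atp5sl, and 2 pseudogenes, which are reported apart. Ndufc1, Ndufc2 and Cyc1 encode subunits too but have other names, and are given with the genes outside the set.

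Each genotype was represented by 1 droplet library of sorted tdTomato-positive islet cells, pooled from 6 animals that were 9 days old. The control carried 1 Neurod1 Cre allele and 1 floxed Isl1 allele (Neurod1 Cre/+; Isl1f/+), so it was not wild type, and the mutant, Isl1CKO, carried 1 Neurod1 Cre allele and 2 floxed Isl1 alleles (Neurod1 Cre/+; Isl1f/f). Cre was driven by Neurod1, which is active across the endocrine lineage, and actinomycin D, an inhibitor of transcription, was present at 25 µg/ml while the tissue was dissociated. With 1 pool per genotype there is no replicate and no test, and genotype, pool, sex of the animals and library cannot be told apart. Brackets hold exact 95% intervals, which reflect the counting of molecules alone and no spread between animals. Isl1 itself is an islet transcription factor. The labels do not say which stretch of it is floxed, so its 3′ tags, at 277 counts per 1000000 UMIs in control insulin cells and 375 in Isl1CKO insulin cells, do not check the genotypes.

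Oxidative phosphorylation passes electrons from NADH (complex I) and succinate (complex II) over complex III to oxygen at complex IV, and ATP synthase uses the resulting proton gradient to make ATP. Most subunits are encoded in the nucleus, and a few core subunits of complexes I, III, IV and V by mitochondrial DNA, so each complex except complex II needs both genomes. In islet beta cells this pathway couples glucose oxidation to insulin release, because the ATP it makes closes potassium channels.

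The control library held 2504 called barcodes with 72548173 UMIs, and the Isl1CKO library 3020 barcodes with 78068592 UMIs; 4 barcodes occurred in both. Cells were sorted into classes by the leading gene of each: insulin (Ins1 and Ins2 at 20% of a cell's UMIs or more), Gcg (glucagon, 10%), Sst (somatostatin, 5%), and in Isl1CKO cells Ttr (5%) and Fev (3 UMIs or more). Cells that met exactly 1 rule were used: 890 insulin, 603 Gcg and 531 Sst cells in the control, and 238 insulin, 412 Ttr and 865 Fev cells in Isl1CKO. Of the 1445 Isl1CKO cells that met the Ttr rule, 1031 also met the Fev rule and were left out of both classes. Levels of genes are given as CPM, UMIs of the gene per 1000000 UMIs outside 8 islet hormone genes. The Ttr class carried the alpha-cell genes Irx1 (239 CPM) and Irx2 (192 CPM) near their control Gcg levels (226 and 204 CPM). Gc, another alpha-cell marker, was at 411 CPM against 184 CPM, and the 8 hormone genes together took a median of 0.291% of a Ttr cell's UMIs, so the class is named by its leading gene and not as alpha cells. Summed markers of mesenchymal, endothelial, immune and glial cells ranged from 4.05 to 251 CPM in the 6 classes, ductal markers from 300.1 to 588 CPM and acinar markers from 87.1 to 574 CPM. Haemoglobins were at 1277 CPM in the control insulin class, 1336 CPM in the Fev class and 1.98 to 44.4 CPM in the other 4. The part of these other cells in the results was not tested. No doublet caller was run.

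The 78 subunit genes together made up 3.41% of the UMIs outside 8 islet hormone genes in the control insulin class (3.40 to 3.42), 2.87% in the control Gcg class (2.86 to 2.88) and 2.7% in the control Sst class (2.69 to 2.71). In Isl1CKO they made up 2.84% in the insulin class (2.82 to 2.86), 3.52% in the Ttr class (3.51 to 3.54) and 2.60% in the Fev class (2.59 to 2.60). The order from the highest was Ttr, control insulin, control Gcg, Isl1CKO insulin, control Sst and Fev. With cells of several rules kept, the Isl1CKO insulin class (2.91%) stood above the control Gcg class (2.88%). The last place of the Fev class depended on the cells kept: with cells of several rules kept the Fev share was 3.32% and with stricter class levels 3.17%, in both cases below the Ttr (3.64% and 3.51%) and control insulin (3.40% and 3.41%) classes and above the other 3. Cells within a class spread more than these gaps between neighbours: the quartiles over cells were 3.06% to 3.99% in the Ttr class, 3.05% to 3.80% in the control insulin class and 2.58% to 3.19% in the Isl1CKO insulin class. Ttr is itself 11.1% of the UMIs outside hormones in the Ttr class and 4.31% in the control Gcg class, and with Ttr left out of the total the 2 shares were 3.96% and 3.00%. Of all UMIs, hormones included, the subunits made up 1.05% in the control insulin class and 3.50% in the Ttr class. The hormone genes took a median of 69.4% of a control insulin cell's UMIs and 0.291% of a Ttr cell's, and they were left out of every total that follows.

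**Figure D1:**
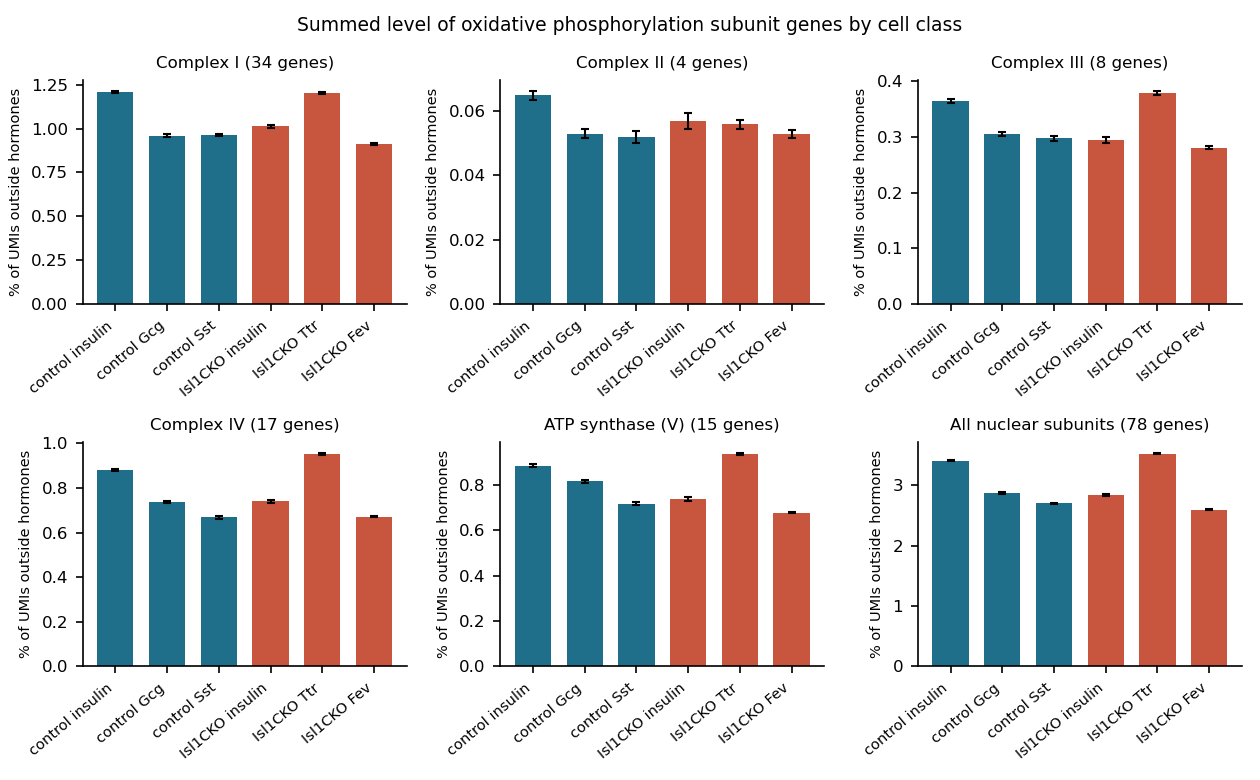
Summed UMIs of the nuclear subunit genes of each complex as a percentage of the class's UMIs outside 8 hormone genes, in 3 control (blue) and 3 Isl1CKO (red) cell classes; bars are 1 library's value and error bars exact 95% counting intervals. For all subunits the Isl1CKO Ttr class (3.52%) and the control insulin class (3.41%) are the highest, while for complex II the Ttr class (0.0559%) lies below the control insulin class (0.0650%).

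The complexes shared this order in part. Complex I, the NADH dehydrogenase, was at 1.21% in the control insulin class, 1.20% in the Ttr class and between 0.912% and 1.01% in the other 4. Complex III was at 0.379% in the Ttr class and 0.364% in the control insulin class, against 0.280% to 0.305% elsewhere. Complex IV, cytochrome c oxidase, was at 0.952% in the Ttr class, 0.881% in the control insulin class and 0.672% in the Fev class, and ATP synthase at 0.935%, 0.885% and 0.678%. Complex II, succinate dehydrogenase, which is also an enzyme of the citric acid cycle, departed from it, with 0.0650% in the control insulin class, 0.0559% in the Ttr class and 0.0518% to 0.0568% in the other 4. Gene by gene, 74 subunits had a mean of at least 5 CPM over the 6 classes. Of these, 40 were highest in the Ttr class and 31 in the control insulin class, and 33 were lowest in the Fev class, as its cells were chosen here. In complex I, 19 of 34 were highest in the control insulin class and 14 in the Ttr class; in ATP synthase 11 of 15 were highest in the Ttr class and 4 in the control insulin class. The exceptions were Ndufb5 of complex I and Cox7a2l, highest in the Isl1CKO insulin class, and Sdha, highest in the control Sst class. The share of all genes that were highest or lowest in each class was not computed, so these counts describe the subunits alone.

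The spread over classes was 2-fold or less for most of the 74 genes. It was not computed for other genes. The highest class exceeded the lowest by a median of 1.5-fold, by less than 1.5-fold for 37 of the 74 genes and by more than 2-fold for 6. The smallest spread was that of Ndufv1, which carries the NADH-binding site of complex I, at 1.14-fold. The 6 widest were Cox6b2 (15-fold), Cox7a2l (3.30-fold), Atp5g2 (2.7-fold), Cox6a1 (2.15-fold), Ndufb8 (2.05-fold) and Ndufs5 (2.04-fold). Cox6b2, Cox7a2l, Atp5g2 and Cox6a1 belong to isoform families, and Ndufb8 and Ndufs5 are accessory subunits of complex I. Cox6a1 was at 678 CPM in the Ttr class, 509 CPM in the control insulin class and between 316 (control Sst) and 439 CPM in the other 4. Ndufb8 was at 819 CPM in the control insulin class, 627 CPM in the Ttr class and between 400.3 (Fev) and 540 CPM in the other 4.

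Promoter windows of RefSeq (250 bases before the start site and 50 after it, GRCm38.p6) matched 64 of the 78 subunit genes, with 69 windows of 300 bases. They were searched on both strands for exact matches to the palindromic consensus of nuclear respiratory factor 1 (NRF1, its letters in capitals in Cox6a1), AAGATGGC (YY1), ACTTCCGG (ETS factors such as GABP) and TCAAGGTCA (estrogen-related receptors), factors known to act on genes of respiration. NRF1 letters stood in 5 of the 69 windows (7.25%) and 0.971% of all 32851 windows. YY1 letters stood in 8 (11.6%) and 2.75%, ETS letters in 5 (7.25%) and 3.89%, and receptor letters in 2 (2.90%) and 0.423%. The member shares thus rest on few windows, and some genes have more than 1 window. A match is a description of the letters and not a binding site. The following complex IV promoters are shown because they belong to the paralogs with the highest ratios between classes, Cox6b2 and Cox7a1, to the widely expressed Cox6b1, and to Cox6a1, the complex IV gene with an NRF1 match. Each is the longest stretch before the start site that overlaps no annotated untranslated region: Cox6a1 at chr5:115348982-115349208 (minus strand), Cox6b1 at chr7:30626152-30626364 (minus strand), Cox6b2 at chr7:4753095-4753225 (minus strand) and Cox7a1 at chr7:30183921-30184143 (plus strand). Capitals mark the NRF1 letters, and no window of the other 3 held any of the 4 motifs.
Cox6a1: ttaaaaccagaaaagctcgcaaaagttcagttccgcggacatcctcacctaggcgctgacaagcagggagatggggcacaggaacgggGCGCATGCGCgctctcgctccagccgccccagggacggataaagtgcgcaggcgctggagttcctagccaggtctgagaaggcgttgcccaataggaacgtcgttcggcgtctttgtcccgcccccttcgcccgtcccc
Cox6b1: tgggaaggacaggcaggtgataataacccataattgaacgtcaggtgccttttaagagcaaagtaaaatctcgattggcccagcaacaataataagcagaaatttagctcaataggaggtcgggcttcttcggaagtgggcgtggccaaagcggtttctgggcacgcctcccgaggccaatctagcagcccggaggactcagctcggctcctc
Cox6b2: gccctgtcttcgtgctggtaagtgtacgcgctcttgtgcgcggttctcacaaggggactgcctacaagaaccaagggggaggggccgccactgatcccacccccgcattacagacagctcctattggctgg
Cox7a1: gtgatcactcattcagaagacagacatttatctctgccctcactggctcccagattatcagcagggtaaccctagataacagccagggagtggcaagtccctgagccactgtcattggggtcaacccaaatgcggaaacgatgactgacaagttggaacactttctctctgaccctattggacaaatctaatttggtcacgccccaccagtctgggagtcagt

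Genotypes were first compared over all called cells, which mixes the makeup of the libraries with levels within cells. Ratios are log2 ratios of CPM, Isl1CKO over control, relative to the median of all 10610 genes compared; a gene was compared with at least 5 CPM on the mean of both groups and at least 50 UMIs. The median of 75 subunit genes was 0.41, and 73 lay above the median gene. At least 1.5-fold higher than the median gene were 8 subunit genes, Cox6b2 (2.26), Cox7a1 (1.67), Atp5g2 (1.11), Cox6a1 (0.76), Atp5l (0.72), Ndufa1 (0.66), Cox5b (0.65) and Uqcrq (0.65), or 10.7% of the 75 against 7.86% of all genes. Cox7a1 (8.37 and 3.27 CPM) reached the minimum level only through Isl1CKO, where it was high. No subunit was 1.5-fold lower, against 8.54% of all genes. The lowest were Sdhc, which anchors complex II in the membrane (−0.09), and Sdha, its flavoprotein (−0.08). Relative to the median of 1682 genes at 100 CPM or more, 1 of 65 subunits, Cox6a1, was 1.5-fold higher, against 6.6% of those genes, and none lower, against 7.43%. Cox4i2, Cox7b2 and Ndufa4l2 were too low to compare here. The makeup of the 2 libraries differed, with 898 of the control and 383 of the Isl1CKO cells meeting the insulin rule, so the classes were compared next.

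The insulin class was the hormone class that both libraries held, as 2 Isl1CKO cells met the Gcg rule and 6 the Sst rule. The 2 insulin classes were not selected alike, because the Ttr and Fev rules were applied to Isl1CKO alone. Of 383 Isl1CKO cells that met the insulin rule, 145 also met the Fev rule and were left out, against 8 of 898 left out in the control. The median with such cells kept is given with the alternatives below. In the insulin class, most subunit genes lay slightly below the median gene in Isl1CKO. The median of 73 subunit genes was −0.17 relative to the median of 10325 genes, 59 lay below the median gene and 14 above it. Medians of the complexes ran from −0.19 (complex III) to −0.07 (complex II). Without a centre, on CPM outside hormones, the median was −0.27; on CPM of all UMIs it was 0.14, where hormones took a median of 59.7% of an Isl1CKO and 69.4% of a control insulin cell's UMIs. No subunit gene was at least 1.5-fold lower, against 9.07% of all genes. Among the lowest was Ndufb8, an accessory subunit of complex I, at 540 CPM in Isl1CKO cells and 819 CPM in control cells (−0.50, −0.57 to −0.44). It shares exon sequence with Gm20538 on its strand, so its count is uncertain.

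Higher by at least 1.5-fold in the Isl1CKO insulin class were 2 of 73 subunit genes (2.74%), against 11.6% of all genes. Cox7a2l (GRCm38 chr17:83501918-83517330), a relative of COX7A that takes part in joining complexes III and IV into supercomplexes, was at 345 CPM in Isl1CKO cells and 235 CPM in control cells (0.66, 0.56 to 0.75). It stood at 0.52 in cells without Xist UMIs, at 0.54 with cells of several rules kept and at 0.57 in cells of 10000 to 40000 UMIs, each short of 1.5-fold. Atp5g2, a gene for the c subunit of the ATP synthase rotor, was at 10.7 CPM (40 UMIs) and 6.64 CPM (87 UMIs), a ratio of 0.78 (0.20 to 1.34). Its copies Gm10175 and Gm10231 had 0 UMIs and it shares exon sequence with Mir688. Among 66 subunits at 100 CPM or more, set against the median of such genes, Cox7a2l alone was 1.5-fold higher (against 7.84%) and none was lower (against 4.08%). Cells with an Xist UMI, a transcript of females, were 68.9% of the Isl1CKO and 24.9% of the control insulin class, and cycling cells 0.420% and 6.18%. The median of the subunits was −0.16 in cells without Xist UMIs and −0.18 without cycling cells.

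**Figure D2:**
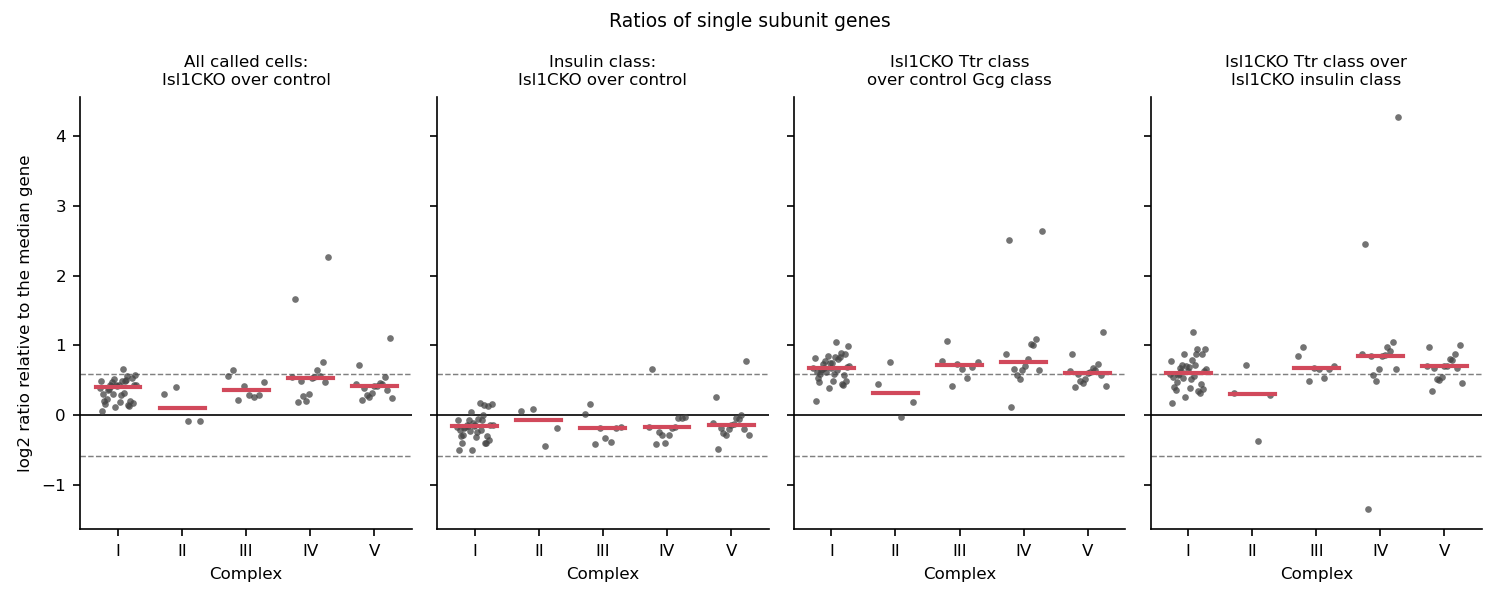
Each point is 1 subunit gene, its log2 ratio of CPM relative to the median of all genes compared (0, solid line), by complex, in 4 comparisons; red bars are medians and dashed lines mark 1.5-fold. Most points of the insulin class lie below 0 (59 of 73), and 74 of 75 lie above it for the Isl1CKO Ttr class over the control Gcg class, with Cox6b2 and Cox7a1 of complex IV the highest.

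The Isl1CKO Ttr class was set beside the control Gcg class because both carry alpha-cell genes; the classes were chosen by different genes in different libraries, so the values describe these 2 sets of cells. Relative to the median gene, subunit genes were higher in the Ttr class almost without exception: 74 of 75 lay above the median of 10227 genes, with a median of 0.66. At least 1.5-fold higher were 52 of 75 (69.3%), against 15.2% of all genes, and none was 1.5-fold lower, against 16.2% of all genes. The size of this count rests on the centre. The median gene of all levels fell by 0.38 on the log2 scale between the classes, and genes at 100 CPM or more, as most subunits are, had a median 0.33 above it. Relative to the median of those 1535 abundant genes, the 64 subunits among them had a median of 0.33, 63 of them lay above it, and 6 (9.38%) were at least 1.5-fold higher, against 11.2% of the abundant genes. These were Ndufa4, Uqcrq, Ndufa1, Cox5a, Cox6a1 and Ndufs3, and none was 1.5-fold lower, against 16.2%. Without a centre the median was 0.28; 9 of 75 were 1.5-fold higher, against 5.86% of all genes, and none lower, against 36.3%. The direction thus held under each centre, while the share 1.5-fold higher was above the background with all genes as the centre and with no centre, and not with the abundant genes as the centre.

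By complex, the medians for the Ttr class over the Gcg class were 0.76 for complex IV, 0.71 for complex III, 0.67 for complex I, 0.61 for ATP synthase and 0.32 for complex II. In complex II, Sdhb, the iron-sulfur subunit, was at 226 CPM in the Ttr and 173 CPM in the Gcg class (0.77), while Sdha was at 66.0 and 87.6 CPM (−0.02, −0.17 to 0.12). Among the subunits farthest above the median gene were Ndufa4, now counted as a subunit of complex IV, at 984 and 603 CPM (1.09, 1.04 to 1.14), and Uqcrq, a small subunit of complex III, at 683 and 428 CPM (1.06, 1.00 to 1.11). Ndufa1, an accessory subunit of complex I encoded on the X chromosome, was at 812 and 510 CPM (1.05, 1.00 to 1.11). With Ttr cells that also met the Fev rule kept, the median was 0.74 and 58 of 75 were 1.5-fold higher, against 16.7% of all genes in those cells. The median stayed between 0.63 and 0.69 with the control threshold doubled, in cells of 10000 to 40000 UMIs, without cycling cells, in cells without Xist UMIs and with no minimum level; cycling cells were 16.0% of the Ttr and 9.95% of the Gcg class, and median depths were 26971.5 and 20707 UMIs.

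The largest ratios belonged to isoforms of complex IV that are best known from other tissues. Cox6b2, first described as a testis isoform of the subunit COX6B, was at 71.9 CPM in the Ttr class and 26.3 CPM in the Fev class. It was at 4.79 CPM in the Isl1CKO insulin class and at 4.81, 16.4 and 9.88 CPM in the control insulin, Gcg and Sst classes. Its ratio for Ttr over Gcg was 2.51 (2.26 to 2.78), and for Ttr over insulin within Isl1CKO 4.28 (3.61 to 5.04). Insulin cells of both genotypes were thus the lowest, with 18 UMIs in Isl1CKO and 63 in the control. As a share of COX6B UMIs, Cox6b2 was 7.48% in the Ttr class (6.98 to 7.99), 4.13% in the Fev class and 2.19% in the control Gcg class (1.85 to 2.57), and Cox6b1, the widely expressed gene, made up the rest. At least 1 Cox6b2 UMI was seen in 242 of 412 Ttr cells, 82 of 603 control Gcg cells and 47 of 890 control insulin cells. The median UMIs outside hormones per cell were 26865 in the Ttr class, 13901 in the Gcg class and 14352 in the control insulin class, so the Ttr cells were the deepest and these shares of cells are not on equal depth. Over the 12 alternatives run, its ratio for Ttr over Gcg lay between 2.13 and 2.76.

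Cox7a1, the muscle and heart isoform of COX7A, was low throughout, at 10.2 CPM (113 UMIs) in the Ttr class and 2.14 CPM (19 UMIs) in the Gcg class, a ratio of 2.64 (1.93 to 3.42). It passed the minimum level through the Ttr class, so its place among the genes compared depended on being high there. Within Isl1CKO it had 9 UMIs in the insulin class and 42 in the Fev class. Cox7a2l had another order of classes than most subunits. It made up 21.4% of COX7A UMIs in the control insulin class, 14.7% in the Gcg class and 18.3% in the Sst class, and in Isl1CKO 34.4% in the insulin class (32.9 to 36.0), 11.4% in the Ttr class (10.8 to 12.0) and 30.4% in the Fev class. Its level was 105 CPM in the Ttr class, against 345 CPM in the Isl1CKO insulin class (−1.35, −1.47 to −1.24) and 126 CPM in the control Gcg class (0.11). The counts are 3′ tags, 1 per molecule, so shares within a family are not scaled by length. Cox7a2, the widely expressed gene of this family, was lowest in the Fev class at 583 CPM and highest in the control insulin class at 858 CPM.

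**Figure D3:**
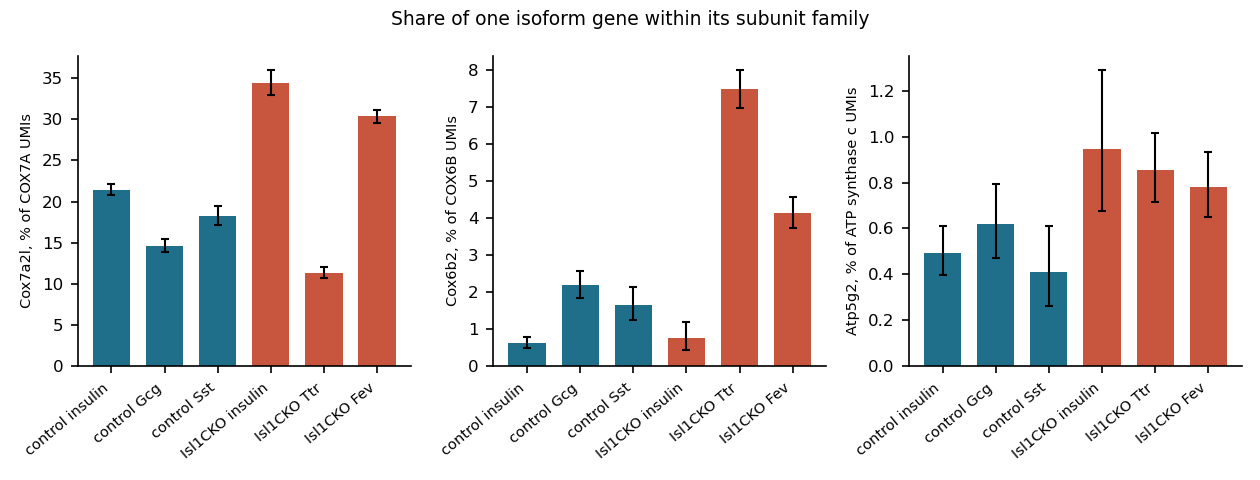
UMIs of Cox7a2l, Cox6b2 and Atp5g2 as a percentage of the UMIs of their isoform families (COX7A, COX6B and the ATP synthase c subunit) in 3 control (blue) and 3 Isl1CKO (red) classes, with exact 95% counting intervals; each panel has its own axis. Cox7a2l is highest in the Isl1CKO insulin class (34.4%) and lowest in the Ttr class (11.4%), while Cox6b2 is highest in the Ttr class (7.48%) and low in both insulin classes (0.628% and 0.751%).

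The c subunit of ATP synthase comes from 3 genes that encode the same mature protein. Atp5g1 gave 64.6% of their UMIs in the Ttr class and 57.9% in the control Gcg class, Atp5g3 34.6% and 41.4%, and Atp5g2 0.854% (0.713 to 1.01) and 0.617% (0.470 to 0.796). Atp5g1 was 0.88 higher in the Ttr class relative to the median gene and Atp5g3 0.47, and the intervals of these ratios do not overlap. Other paralogs were near 0: Cox4i2, the hypoxia-linked form of COX4, had at most 6 UMIs in any class against at least 4320 of Cox4i1, Ndufa4l2 had at most 22 and Cox7b2 at most 9. For Cox8a, no class had more than 1 UMI of its paralogs.

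Within the control library, most subunit genes lay below the median gene in the other hormone classes set against insulin cells. The median of 74 subunit genes was −0.15 for Gcg over insulin cells and −0.32 for Sst over insulin cells; 57 and 69 of them lay below the median gene. For Gcg cells 3 were at least 1.5-fold lower (4.05%, against 15.1% of all genes), among them Cox7a2l (−0.82) and Ndufb8 (−0.75), and 1 was higher, Cox6b2 (1.84), against 15.9%. For Sst cells 14 were lower (18.9%, against 13.4%), with Cox7b (−0.91), Ndufb8 (−0.87), Uqcrq (−0.80), Sdhd (−0.78) and Cox6a1 (−0.74) among the farthest, and 1 was higher, Cox6b2 (0.99), against 15.9%. The median depth was 14398 UMIs in Sst and 48339.5 UMIs in insulin cells, and in cells of 10000 to 40000 UMIs 7 of 73 were lower, against 11.4% of all genes, and none higher. Cox6b2 reached the minimum level only through the Gcg and the Sst cells, at 4.81 CPM in the insulin cells, and Atp5g2, 1 of the 14, only through the insulin cells. Both comparisons share the control insulin cells. The second highest were Uqcrh, the hinge protein of complex III, in Gcg cells (0.25) and Ndufs6 in Sst cells (0.11). On CPM of all UMIs, hormones included, the directions turned, with medians of 0.92 and 0.90. Among genes at 100 CPM or more, 3 of 65 subunits were lower in Gcg cells (against 14.1%) and none higher (against 14.4%), with a median of −0.01. For Sst cells 6 of 67 were lower (against 11%) and none higher (against 9.86%).

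Within Isl1CKO the Ttr class had the higher levels and the Fev class lay near the insulin class. Cells with an Xist UMI were 68.9% of the insulin, 36.4% of the Ttr and 16.4% of the Fev class, and cycling cells 0.420%, 16.0% and 2.08%. For Ttr over insulin cells the median of 75 subunit genes was 0.67; 46 were at least 1.5-fold higher (61.3%, against 19.4% of all genes) and 1 was lower, Cox7a2l (1.33%, against 19.9%). Cox6b2 and Cox7a1 (2.46) reached the minimum level only through the Ttr class, where they were high. After them, Ndufa3 of complex I (1.19), Cox6a1 (1.05), Atp5o, the stator subunit of ATP synthase (1.01), and Cox6c (0.98) were the highest. Sdha was again among the lowest (−0.37), at 66.0 CPM in Ttr and 110 CPM in insulin cells. Relative to abundant genes the median was 0.40, and 14 of 64 were higher (against 13.5%) and 1 lower (against 19.3%). For Fev over insulin cells the median of 74 was −0.13, with 1 higher, Cox6b2 (2.44, compared only through its level in Fev cells), against 10.7%, and 1 lower, Ndufs5 (−0.66), against 9.28%. Among 65 subunits at 100 CPM or more none passed 1.5-fold in either direction, against 4.84% higher and 7.46% lower. Ndufs5 has a near-identical copy, BC002163, with 280 UMIs in Fev cells against 347 of its own. Its ratio turned positive in cells without Xist UMIs and with cells of several rules kept. The next highest was Ndufb6 of complex I (0.10) and the next lowest Cox7a2l (−0.45). The Fev median turned with the cells kept: it was 0.40 with cells of several rules, 1031 of which also met the Ttr rule, and 0.25 with stricter class levels.

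The subunits encoded by mitochondrial DNA were set beside the nuclear ones. Of 13, mt-Co2, mt-Atp6, mt-Atp8 and mt-Nd4l were listed at 0 UMIs and mt-Co3 at 1, so 8 could be compared. Of the 5 listed at or near 0, mt-Co2, mt-Atp6, mt-Co3 and mt-Nd4l have a near-identical annotated copy, itself at 0, and mt-Atp8 overlaps mt-Atp6. Copies are also annotated for mt-Nd2, mt-Nd3 and mt-Co1, which were counted at 1698, 39.5 and 808 CPM in all control cells. Why the 5 were at or near 0 was not tested. In the insulin class the median of the 8 was 0.50 for Isl1CKO over control, where the nuclear subunits were at −0.17. The core complex I gene mt-Nd5 was at 1508 and 976 CPM (0.73, 0.68 to 0.77) and the catalytic complex IV gene mt-Co1 at 1498 and 1005 CPM (0.67, 0.63 to 0.72); mt-Nd6 was the lowest (0.08, −0.36 to 0.49). The mt-Nd5 gene overlaps mt-Nd6 on the opposite strand and mt-Co1 has annotated copies, Gm13340 and Gm29216. For Ttr over Isl1CKO insulin cells the signs also differed, with a median of −0.29 against 0.67 for the nuclear subunits. In the other 5 comparisons both medians had the same sign. They were 0.34 and 0.41 for all cells, mitochondrially encoded first, and 0.32 and 0.66 for Ttr over Gcg cells. Within the control they were −0.28 and −0.15 for Gcg over insulin cells and −0.66 and −0.32 for Sst over insulin cells, and for Fev over Isl1CKO insulin cells −0.55 and −0.13. These comparisons share classes. Summed, they were 2.11% of UMIs outside hormones in the Isl1CKO insulin class, 1.63% in the control insulin class and 1.07% to 1.55% in the other 4. The part of cell state in this was not tested. Median shares of all mitochondrial UMIs in the insulin class were 1.22% in Isl1CKO and 0.723% in the control.

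**Figure D4:**
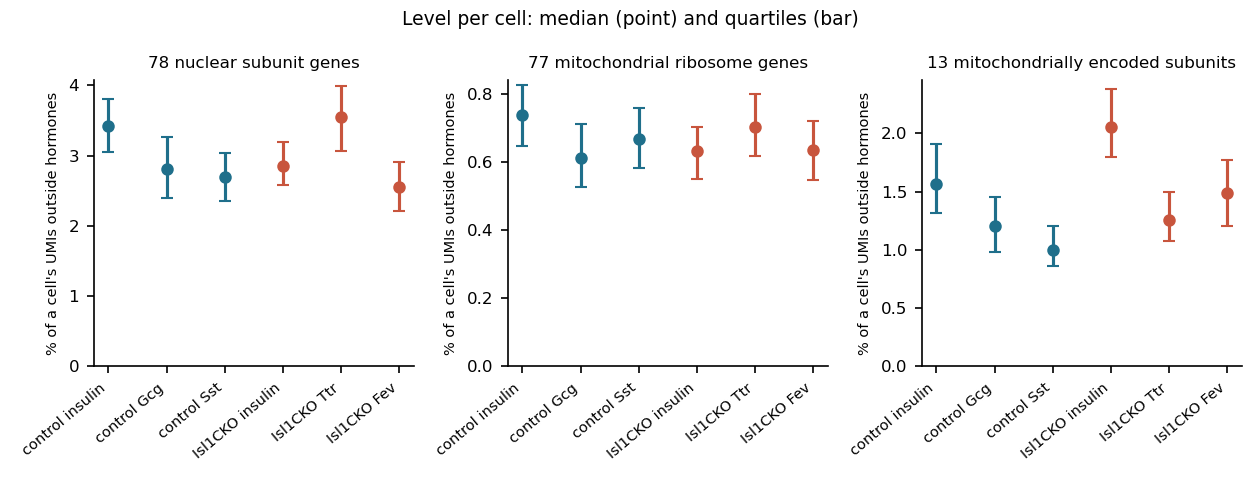
Share of a cell's UMIs outside hormone genes for 78 nuclear subunit genes, 77 genes of the mitochondrial ribosome and 13 mitochondrially encoded subunits; points are medians over the cells of a class and bars quartiles, which describe cells of 1 pool per genotype and not replicates. The Isl1CKO insulin class lies below the control insulin class for nuclear subunits (medians 2.86% and 3.42%) and above it for mitochondrially encoded ones (2.05% and 1.56%).

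Other genes of the pathway, in lists by function, stood beside the subunits as follows. Proteins of the mitochondrial ribosome, which makes the mitochondrially encoded subunits, had a median of 0.50 for Ttr over Gcg cells, with 26 of 75 at least 1.5-fold higher (against 15.2% of all genes) and none lower (against 16.2%). In the insulin class their median was −0.11, with none of 75 higher (against 11.6%) and 2 lower (against 9.07%). Cytosolic ribosomal proteins, abundant genes outside mitochondria, had a median of −0.03 for Ttr over Gcg cells and 0.33 in the insulin class. Enzymes of the citric acid cycle and pyruvate entry had 0.27 and −0.13. Among carriers and subunits with other names, 7 of 9 were at least 1.5-fold higher in Ttr than Gcg cells (against 15.2% of all genes). Etfb (389 and 253 CPM, 1.00) and Cyc1 (161 and 113 CPM, 0.90) were the highest. In the insulin class 2 of 10 were lower (against 9.07%), Cox6a2 and Cycs (−0.68). Cox6a2, with 0 UMIs in Isl1CKO and 482 in control cells, reached the minimum level only through the control. These backgrounds are over genes of all levels. The counts of this paragraph for Ttr over Gcg cells rest on the median of all genes as the centre, which fell by 0.38 between these classes. No count with the abundant genes as the centre or with no centre stands beside them, so their excess over the background may depend on the centre. The 11 assembly factors among the members had medians of 0.18 for Ttr over Gcg cells, with 3 higher (Sdhaf1 at 0.81, Ndufaf6 at 0.64 and Ndufaf3 at 0.62, against 15.2% of all genes), and −0.17 in the insulin class. There 1 of the 11 was lower, a share near the 9.07% of all genes: Ndufaf5 (−0.86), which reached the minimum level only through the control. Of 14 regulators compared in the insulin class, 2 were higher, a share near the 11.6% of all genes, and none was 1.5-fold lower. They were Esrrg, an estrogen-related receptor, at 11.7 CPM (44 UMIs) in Isl1CKO and 2.21 CPM (29 UMIs) in control cells, and Myc at 7.19 CPM (27 UMIs) and 4.27 CPM (56 UMIs), and both reached the minimum level only through Isl1CKO. The 2 pseudogenes had at most 1.26 CPM in any class, and Atp5s and Atp5sl lay between 11.9 and 18.2 CPM.

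Across the cells of a class, the share of the nuclear subunits rose and fell with that of the mitochondrial ribosome, with Spearman's rho between 0.65 and 0.78 over 238 to 890 cells in the 6 classes. With the mitochondrially encoded subunits rho ran from −0.31 (control Gcg) to 0.09 (control insulin), and with the cell's UMIs from 0.002 (control insulin) to 0.33 (control Gcg). These values share their cells and totals and are given as descriptions.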

How the data were processed

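Gene by barcode matrices of UMI counts, as deposited by the authors, were used, 1 for each genotype. The tools named, per the submitters' processing notes, are Seurat 4.3.0.1, STAR 2.7.3a and STARsolo, with GRCm38.p6 as genome build. Their roles and the annotation release were not given in the sources used here. The Isl1CKO matrix was filtered (its lowest barcode has 4882 UMIs) and the control matrix was not (6794880 barcodes), so control barcodes were called at 6825 UMIs, the 99th percentile of the top 3000 divided by 10. UMIs were summed per class, scaled per 1000000 UMIs outside 8 hormone genes (Ins1, Ins2, Gcg, Sst, Ppy, Pyy, Iapp, Ghrl), and log2 ratios were taken relative to the median gene. Genes needed a mean of 5 CPM and 50 UMIs. With 1 library per genotype a gene is counted as higher or lower from 1.5-fold, with no test. The 7 comparisons, members and lists were chosen with earlier results of these data known.

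Named are members past 1.5-fold (the 6 farthest in a direction where there are more), the highest and lowest pair of each comparison, the isoform families and the highest and lowest pair of each other list; Sdhb, Ndufv1 and Ndufb5 were added after their values were seen, and some genes that the rule would name are not reported here. No doublet caller was run. Near-identical copies and shared exons came from GENCODE M21 and affect 22 of 78 subunit genes. Promoters came from RefSeq. Alternatives covered the cell threshold, class rules, depth, Xist, cycling and mitochondrial filters, the minimum level, the fold and the centre. The calculation of ratios and intervals was run on simulated counts with planted changes larger than 1.5-fold. Those counts held counting noise alone, with no spread between cells, animals or libraries, so they check the calculation and not the reported ratios. The work used pandas 2.3.3, numpy 2.4.6, scipy 1.17.1 and matplotlib 3.10.9 in Python 3.11.15.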

Additional observations from a re-analysis of the deposited data

Results flagged for a closer look

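The control barcodes below the cell threshold, 872 barcodes of 1000 UMIs or more, lie outside the comparisons and carried subunit RNA. Subunit genes made up 0.771% of their UMIs outside hormones (0.759 to 0.783), against 3.05% in the called control cells. Mitochondrially encoded subunits made up 9.52% of the same UMIs, and the median share of mitochondrial UMIs was 20.4%. In control barcodes under 100 UMIs, taken here as droplets without a cell, the subunit genes made up 4.23% and the mitochondrially encoded ones 3.59%. The source of this RNA was not examined. The filtered Isl1CKO matrix holds no such barcodes, and the part of this background in the differences between classes and genotypes was not tested.

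Cox6a2, the muscle and heart isoform of COX6A, is not a member but showed a signal in one class. It had 482 UMIs in the control insulin class, in 170 cells, or 6.74% of the COX6A UMIs there (6.17 to 7.35). The control Gcg class had 11 UMIs, the control Sst class 1, and the Isl1CKO Ttr class 2. The Isl1CKO insulin and Fev classes had 0. Set against the 3 UMIs that a count of 0 allows in the Isl1CKO insulin class (0.799 CPM), the 36.8 CPM of the control insulin class were at least 46.0-fold higher. Cox6a1, the member of this family, was at 509 CPM in control and 423 CPM in Isl1CKO insulin cells.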

How the results depend on the processing

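No paired analysis was possible because each genotype has 1 library, and no replicate could be left out. Of 89 alternative values of the subunit medians 61 were unchanged within the tolerance, 22 moved and 6 reversed. Of 96 counts 60 stayed within 1.5-fold. Of 1235 values of single genes 777 were unchanged, 446 moved and 12 reversed, and 45 of 76 summed levels moved. Centring on abundant genes, leaving out genes with copies or shared exons, leaving Ttr out of the total and the counts under all alternatives but the fold of 2 were chosen after seeing the data. Where no other reason is given, the cause was not tested. Counts of genes past 1.5-fold below take both directions together. They describe the subunits alone where no share of all genes is printed beside them. With cells of several rules kept, medians were −0.11 (insulin class), 0.74 (Ttr over Gcg) and 0.40 (Fev over insulin, with 9 genes past 1.5-fold). With stricter class levels they were −0.13 (insulin class) and 0.25 (Fev over insulin). With means per cell, medians were 0.25 (all cells, 4 genes) and −0.16 (Fev over insulin), and 8 genes passed for control Gcg over insulin. In cells of 10000 to 40000 UMIs, 17 genes passed over all cells, 1 in the insulin class, 7 for Sst over insulin and 1 for Fev over insulin. Without Xist cells 5 passed over all cells, and the Ttr over insulin median was 0.58. With no minimum level the all-cell median was 0.49 with 21 genes, and 13 passed for Gcg over insulin.

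Without centring, on UMIs outside hormones, medians were 0.10 (all cells, 3 genes), −0.27 (insulin class, 4 genes), 0.28 (Ttr over Gcg, 9 genes), −0.27 (Sst over insulin) and 0.30 (Ttr over insulin, 10 genes), and 11 genes passed for Gcg over insulin. On all UMIs, where hormones enter the total by construction, medians were 1.01 (all cells), 0.14 (insulin class), 0.82 (Ttr over Gcg), 0.92 (Gcg over insulin), 0.90 (Sst over insulin), 1.58 (Ttr over insulin) and 1.09 (Fev over insulin). On that scale 73 genes passed over all cells, for Ttr over insulin and for Fev over insulin, and 63 for Gcg and for Sst over insulin. In these comparisons the hormones in the total move every other gene alike, by 0.91 (all cells) to 1.28 (Ttr over insulin). These counts are therefore not particular to the subunits, and no share of all genes stands beside them. Genes that turned there included, for Gcg over insulin, Cox7a2l (0.25) and Ndufb8 (0.32). For Sst over insulin they included Cox6a1 (0.48), Sdhd (0.43), Uqcrq (0.41), Atp5g2 (0.54), Cox7a2l (0.52), Ndufb8 (0.34) and Cox7b (0.30). Ndufs5 for Fev over insulin turned to 0.56 there, to 0.21 with cells of several rules and to 0.031 without Xist cells.

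Centred on genes at 100 CPM or more, medians over all subunits were 0.25 (all cells, 4 genes past 1.5-fold), −0.11 (insulin class), 0.33 (Ttr over Gcg, 9 genes), −0.010 (Gcg over insulin), −0.18 (Sst over insulin, 7 genes), 0.40 (Ttr over insulin, 19 genes) and −0.057 (Fev over insulin, 1 gene). At a fold of 2, with the share of all genes in brackets, 3 genes were higher over all cells (3.12%), 0 in the insulin class (4.63%), 8 for Ttr over Gcg (5.49%), 1 for Gcg over insulin (8.29%), 0 for Sst over insulin (9.26%), 5 of the 6 that passed for Ttr over insulin (8.85%) and 1 for Fev over insulin (4.61%). Lower by 2-fold was 1 gene for Ttr over insulin (10.5%) and 0 in the other 6, where 3.46% to 7.34% of all genes were. Without genes that have copies or shared exons, which leaves fewer genes, 5 passed over all cells, 1 in the insulin class, 33 for Ttr over Gcg and 1 for Fev over insulin. Summed subunit shares ranged from 3.35% to 3.42% (control insulin), 2.83% to 3.00% (control Gcg), 2.68% to 2.76% (control Sst), 2.79% to 2.91% (Isl1CKO insulin), 3.49% to 3.96% (Ttr) and 2.56% to 3.32% (Fev). Low genes such as Cox7a1 and Atp5g2 are limited by counts, with 9 and 40 UMIs in the Isl1CKO insulin class.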
